A study of Homo sapiens with 2 samples.

Results

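The genes described here are those for neogenin, the netrins, the semaphorins and the other classical guidance cues and receptors, read in a human breast cancer line with and without S100A7. They were chosen by name: every probe set annotated to NEO1, DCC, NRP1 or NRP2, or to a symbol beginning with SEMA, PLXN, ROBO, SLIT and a digit, NTN, UNC5 or RGM. This gave 142 probe sets, of which 141 named 1 gene and covered 59 genes, out of 19775 genes on the array. The remaining probe set lists SEMA3B together with a microRNA gene and read under the floor described below on both arrays. The set was proposed because NEO1 was already known to differ strongly between these arrays, so its values are a description, and no test was run on them.

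Total RNA of MDA-MB 231 cells, an invasive human breast cancer line that lacks the estrogen receptor, was hybridised to Affymetrix expression arrays. The S100A7 cells carried the S100A7 coding sequence in the plasmid pIRES2-EGFP, and the vector cells carried pIRES2-EGFP alone. Both were selected as stable transfectants, so both carried the plasmid backbone with its fluorescent reporter. Each group was 1 sample on 1 array. Whether a line was a single clone or a pool is not given in the sources used here.

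Guidance cues are secreted or membrane-bound proteins that steer growing axons, migrating cells and sprouting vessels by attracting or repelling them. Netrins act through DCC and neogenin, mostly as attractants, and through UNC5 receptors as repellents. Repulsive guidance molecules (RGMs) bind neogenin and also serve as co-receptors for bone morphogenetic proteins. Semaphorins signal through plexins, the secreted ones usually with a neuropilin as partner, and Slits signal through Robo receptors. In carcinoma cells the same proteins are studied for their part in motility, invasion and survival, and DCC, UNC5 receptors and neogenin are described as dependence receptors, which can trigger cell death when no ligand is bound.

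Intensities are the deposited linear values. With no detection calls at hand, the 50th percentile of each array, 69.0 for S100A7 and 71.0 for vector, served as a floor. Probe sets at or above the floor on either array are called measured. Values under the floor were set to it, so a fold with a value at the floor on 1 side is a minimum, written as at least that size. By this rule 61 of the 141 probe sets were measured, 49 on both arrays, 4 on the S100A7 array only and 8 on the vector array only, and they covered 33 of the 59 genes. The other 26 genes read under the floor on both arrays, which does not show that they are not expressed. The measured probe set with the highest mean log2 intensity stood for its gene, and every log2 ratio has S100A7 cells over vector cells. With 1 array a group no difference could be set against a spread between cultures, and in bulk RNA fewer cells of a kind and less RNA per cell cannot be told apart.

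The array labels held for the transfected gene, which read 13232 in S100A7 cells and 11.99 in vector cells. All 5 markers fixed as present in MDA-MB 231 (VIM, CD44, EGFR, KRT18, AXL) were above the floor on both arrays, with log2 ratios between -0.26 and 0.16, and ESR1, PGR and CDH1 were under it on both, whereas EPCAM, also set down as low, read 513 and 544. Of markers of other cells, 1 of 4 for blood, 2 of 3 for endothelium, 3 of 6 for neurons and glia, 2 of 4 for fibroblasts and 0 of 2 for muscle were measured. The summed endothelial markers read 263 in S100A7 cells and 173 in vector cells, and VWF was under the floor on both arrays. The summed neuronal and glial markers read 17807 in S100A7 cells and 15722 in vector cells. Most of that sum was TUBB3, MBP read 1568 in S100A7 cells and 660 in vector cells, and SYP, RBFOX3 and GFAP were under the floor on both arrays. The other sums were lower in S100A7 cells: fibroblast markers read 630 in S100A7 cells and 975 in vector cells, blood markers 151 in S100A7 cells and 181 in vector cells, and muscle markers 58.1 in S100A7 cells and 121 in vector cells. Single markers did not all follow their sums. COL1A1 read 487 in S100A7 cells and 842 in vector cells, but COL1A2 read 89.4 in S100A7 cells and 58.8, under the floor, in vector cells. Of the blood markers, HBB and LYZ read lower in S100A7 cells, and PTPRC and TYROBP higher. The muscle sum held only values under the floor. PTPRC, TYROBP, LYZ, DCN and PDGFRA were under the floor on both arrays. The part of other cells in the results below was not tested.

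Neogenin was the 1 guidance gene outside 2-fold when values under the floor were set to it. The brighter NEO1 probe set (204321_at) read 153 in S100A7 cells and 1242 in vector cells, 8.11-fold lower. The second (225270_at) read 170 in S100A7 cells and 699 in vector cells, 4.10-fold lower, so both measured probe sets were lower in S100A7 cells, at log2 ratios of -3.02 and -2.04. The remaining one (229877_at) read 11.6 in S100A7 cells and 42.1 in vector cells, under the floor on both. Both S100A7 values of the measured probe sets stayed above the floor of 69.0, so at this floor the fold was measured on both sides and is not a bound. Of 33 measured guidance genes, 1 (3.03%) was at least 2-fold lower, against 2.25% of the 12688 measured genes, and 0 were at least 2-fold higher, against 1.80% of them. The counts of guidance genes outside 2-fold were thus near those of the array. They are a description only, since NEO1, the 1 gene counted, was the gene for which the set was proposed. With low values raised to the floor, dim genes could not reach 2-fold. Examples are NTN1, at 117 in S100A7 cells, and UNC5C, at 86.5 in vector cells, each under the floor on the other array.

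**Figure D1:**
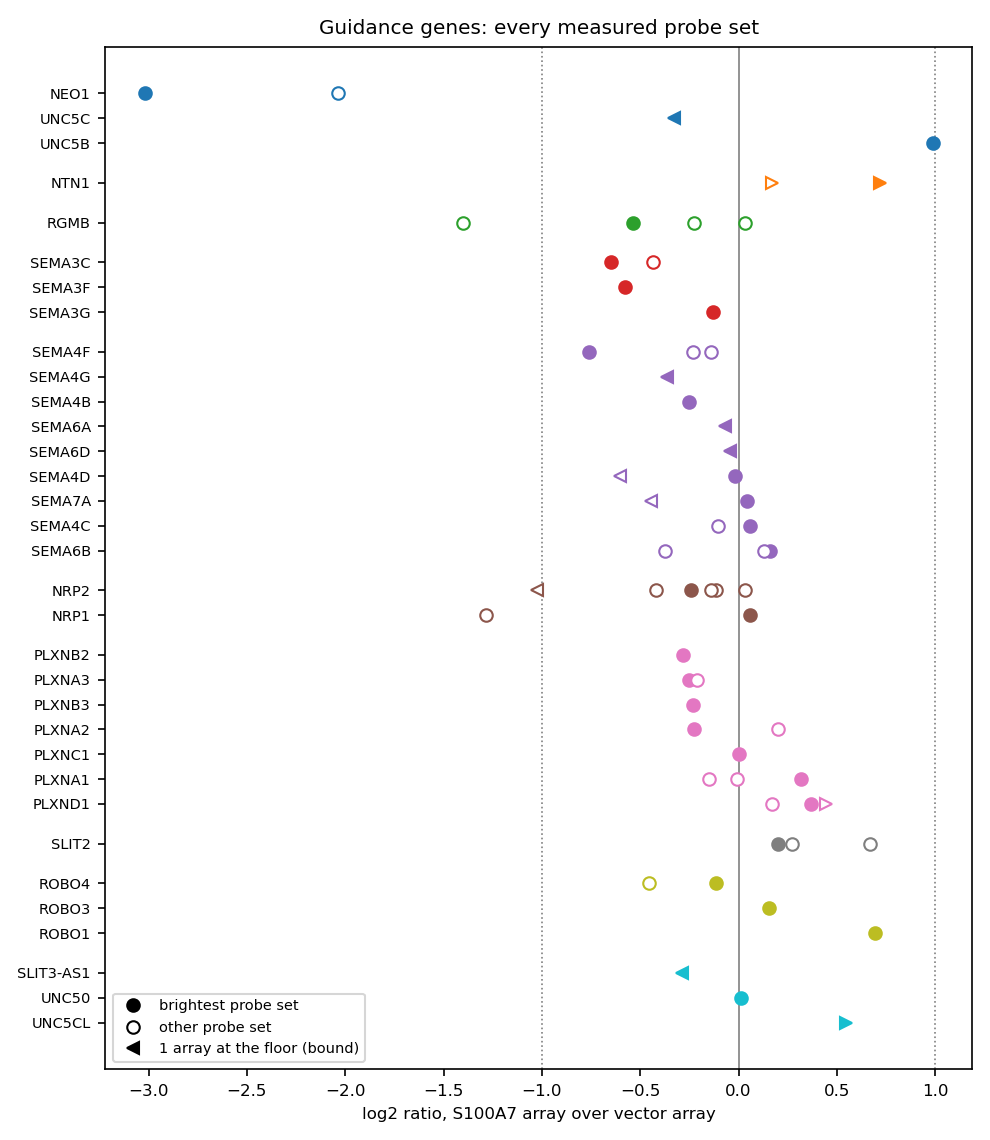
Log2 ratio, S100A7 over vector, of every measured probe set of the 33 measured guidance genes, grouped by colour into receptors and ligands. Filled symbols are the brightest probe set of a gene and open symbols the others, triangles are bounds with 1 array at the floor, and dotted lines mark 2-fold; with the floor applied, NEO1 at -3.02 and -2.04 lies apart from the other genes, which lie between -0.76 and 0.99 by their brightest probe set.

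Of the other netrin receptors, 2 were measured. UNC5B, a repulsive netrin receptor, read 171 in S100A7 cells and 86.2 in vector cells, a log2 ratio of 0.99 and 1.98-fold higher, just inside the 2-fold limit. It crossed that limit when the arrays were scaled to equal medians, at 1.03, and was at 0.78 with 32 added to each value. These values rested on 1 probe set, the other 2 being under the floor on both arrays. Those 2, 213100_at and 226899_at, read 24.1 and 5.94 in S100A7 cells and 30.3 and 35.1 in vector cells. UNC5C, of the same family, read 10.2 in S100A7 cells and 86.5 in vector cells, at least 1.25-fold lower. Its S100A7 value was far under the floor and its vector value just above it, so the size of that difference depended on how low values were treated: its log2 ratio was -0.33 with the floor, -1.49 with 32 added to each value and -3.08 with no floor. These ratios rested on 1 probe set. The others for UNC5C were under the floor on both arrays and differed in direction. Of them, 206189_at read 37.2 in S100A7 cells and 6.96 in vector cells, and 1555341_at read 0.71 in S100A7 cells and 16.6 in vector cells. DCC, the best known netrin receptor, read from 5.81 to 20.2 in S100A7 cells and from 29.1 to 35.6 in vector cells over its 3 probe sets, under the floor throughout. UNC5A and UNC5D were likewise under the floor on both arrays.

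Among the ligands of these receptors, NTN1, which encodes netrin-1, was above the floor in S100A7 cells only. Its brightest probe set read 117 in S100A7 cells and 64.7 in vector cells, at least 1.65-fold higher. A second read 80.05 in S100A7 cells and 5.52 in vector cells, at least 1.13-fold higher, and the remaining one was under the floor on both arrays. These were dim signals close to the floor. The other 5 netrin genes, NTN3, NTN4, NTN5, NTNG1 and NTNG2, were under the floor on both arrays.

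RGMB, a neogenin ligand and bone morphogenetic protein co-receptor, had 4 measured probe sets that differed among themselves. The brightest read 1894 in S100A7 cells and 2749 in vector cells, 1.45-fold lower. The next ones read 849 in S100A7 cells and 993 in vector cells, and 690 in S100A7 cells and 675 in vector cells. The dimmest (242450_at) read 83.8 in S100A7 cells and 221 in vector cells, a log2 ratio of -1.40. Log2 ratios of the 4 thus ran from -1.40 to 0.03, and no single change described the gene. RGMA, which encodes another neogenin ligand, was under the floor on both arrays.

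Since NEO1 stands apart from the rest, its promoter is shown beside those of 2 genes that bear on the comparison: SEMA7A, a guidance gene near it on chromosome 15, and RGMB, its ligand. The sequences are the 250 bases upstream of the transcript start in the RefSeq annotation of GRCh38.p14, 5′ to 3′ on the gene's strand, chr15:73051652-73051901 (plus strand) for NEO1, chr15:74433959-74434208 (minus strand) for SEMA7A and chr5:98768382-98768631 (plus strand) for RGMB, the first listed start being used where a gene has several. Capitals mark matches, on either strand, to the 5 motifs searched. The GC box, where Sp1 proteins bind, was searched as GGGCGG and the CCAAT box by those letters. The TATA box of core promoters was searched as TATAAA. For the AP-1 factors the letters searched were TGANTCA, and for the E-box of helix-loop-helix factors they were CACGTG. No match overlapped another.
NEO1: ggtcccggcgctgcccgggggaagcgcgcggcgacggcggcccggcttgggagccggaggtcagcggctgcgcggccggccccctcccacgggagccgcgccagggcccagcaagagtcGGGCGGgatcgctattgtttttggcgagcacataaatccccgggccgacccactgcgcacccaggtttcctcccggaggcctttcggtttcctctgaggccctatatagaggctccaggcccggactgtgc
SEMA7A: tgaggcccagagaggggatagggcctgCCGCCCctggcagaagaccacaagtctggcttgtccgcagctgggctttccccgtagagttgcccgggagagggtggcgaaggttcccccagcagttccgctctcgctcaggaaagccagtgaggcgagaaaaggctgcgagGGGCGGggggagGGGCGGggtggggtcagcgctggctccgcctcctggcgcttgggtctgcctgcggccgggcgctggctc
RGMB: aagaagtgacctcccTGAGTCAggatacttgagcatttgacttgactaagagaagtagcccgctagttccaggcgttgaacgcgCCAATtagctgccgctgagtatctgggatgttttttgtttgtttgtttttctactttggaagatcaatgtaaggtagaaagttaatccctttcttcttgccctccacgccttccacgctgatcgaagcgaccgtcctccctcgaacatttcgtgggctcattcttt

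The NEO1 window held 1 GC box and 0 matches to the other 4 motifs. That of SEMA7A held 3 GC boxes, and that of RGMB 1 CCAAT box and 1 AP-1 match. A GC box was found in 42.6% of the 35116 promoter windows of this length, a CCAAT box in 11240 of them, a TATA box in 10.7%, an AP-1 match in 6.57% and an E-box in 6.34%. The NEO1 window was 71.6% G and C, with a CpG content of 0.87 of that implied by its bases, against medians of 58.0% and 0.56 over all windows. SEMA7A was similar in base content at 70.0% but had fewer CpG pairs (0.57), and RGMB was at 46.8% and 0.88. These matches are letters in a window, and binding was not measured.

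NEO1 also stood apart from its surroundings on chromosome 15. The 40 nearest measured genes, 20 on each side, had a median log2 ratio of -0.33, and 31 of them were below 0. They ranged from -1.42 to 0.54, and 3 were at least 2-fold lower. Over all measured genes, 54.2% were below 0 and 2.25% were at least 2-fold lower. The 420 measured genes of chromosome 15 had a median of -0.33 as well, so genes around NEO1 were somewhat lower in S100A7 cells as a group, and NEO1 was at -2.69 after the median of its neighbours was subtracted. SEMA7A, a lipid-anchored semaphorin separated from NEO1 by 12 measured genes, read 572 in S100A7 cells and 556 in vector cells, a log2 ratio of 0.04. Its second measured probe set (210083_at) read 23.4 in S100A7 cells, under the floor, and 93.97 in vector cells, at least 1.36-fold lower, so the SEMA7A probe sets differed. UNC5B on chromosome 10 lay among genes with a median of 0.18, and was at 0.80 after the same subtraction.

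**Figure D2:**
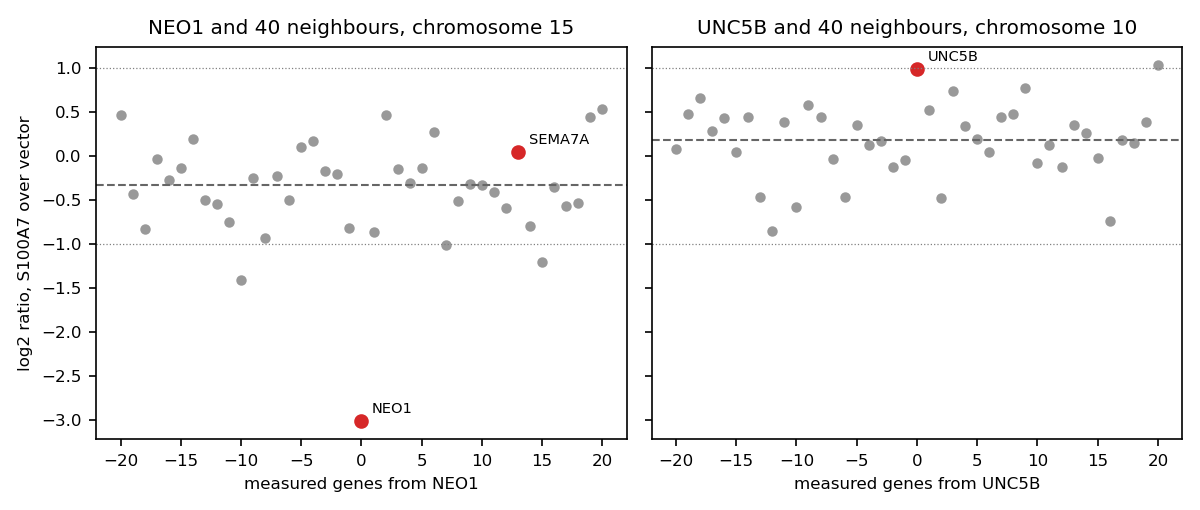
Log2 ratio, S100A7 over vector, of NEO1 (left) and UNC5B (right) and the 20 nearest measured genes on each side, in gene order; guidance genes are in red, the dashed line is the median of the 40 neighbours (-0.33 and 0.18) and dotted lines mark 2-fold. NEO1 at -3.02 lies below all 40 neighbours, the lowest of which is at -1.42, while 1 neighbour of UNC5B lies above it at 1.04.

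Secreted class 3 semaphorins, which bind neuropilins and act mainly as repellents, were measured for 3 of 7 genes, all with log2 ratios below 0. SEMA3C read 579 in S100A7 cells and 908 in vector cells, 1.57-fold lower, and its second probe set read 112 in S100A7 cells and 151 in vector cells. SEMA3F, described as a tumour suppressor that restrains vessel growth, read 303 in S100A7 cells and 452 in vector cells, 1.49-fold lower on 1 of 3 probe sets. SEMA3G read 72.8 in S100A7 cells and 79.6 in vector cells, close to the floor. None of these reached 2-fold. The 40 measured genes nearest to SEMA3C had a median of -0.38, and SEMA3C was at -0.27 after that median was subtracted. SEMA3A, SEMA3B, SEMA3D and SEMA3E were under the floor on both arrays.

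Membrane-bound semaphorins were measured for 9 of 13 genes, with a median log2 ratio of -0.04 and none outside 2-fold. SEMA4F read 328 in S100A7 cells and 557 in vector cells, 1.70-fold lower, but its other 2 probe sets were at log2 ratios of -0.23 and -0.14. SEMA4D, a ligand of plexin B1, read 352 in S100A7 cells and 356 in vector cells, and its second probe set read 43.8 in S100A7 cells and 105 in vector cells. SEMA4C, also a plexin B ligand, read 1308 in S100A7 cells and 1255 in vector cells. SEMA4B read 1002 in S100A7 cells and 1193 in vector cells, and SEMA6B 360 in S100A7 cells and 321 in vector cells. SEMA4G, SEMA6A and SEMA6D were above the floor in vector cells only, between 71.1 and 88.9, and from 39.4 to 47.6 in S100A7 cells. Their ratios are therefore bounds, and with no floor SEMA4G was at -0.92 and SEMA6A at -0.88, against -0.76 for SEMA4F. SEMA4A, SEMA5A, SEMA5B and SEMA6C were under the floor on both arrays.

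Neuropilins, co-receptors for secreted semaphorins and for vascular endothelial growth factor, were close on both arrays by their brightest probe sets, and their probe sets differed among themselves. NRP1 read 232 in S100A7 cells and 222 in vector cells by one probe set (212298_at), and 119 in S100A7 cells and 289 in vector cells by another (210510_s_at), a log2 ratio of -1.28. The name of the second ends in _s_at, a suffix for probe sets that can match several transcripts. The brightest probe sets of SEMA3C, SEMA4B, PLXNA1, PLXNA2, PLXNB2 and NRP2 also end in _s_at, and that of SEMA4F in _x_at. SEMA3C, SEMA4B, SEMA4F and PLXNB2 were not measured when probe sets with either suffix were left out. NRP2 had 6 measured probe sets with log2 ratios from -1.02 to 0.03. Its brightest read 183 in S100A7 cells and 217 in vector cells, and the lowest ratio came from one (225566_at) that read 60.02 in S100A7 cells, under the floor, and 140 in vector cells. A range of at least 1 between probe sets of a gene was seen for NRP1, NRP2 and RGMB, 3 of the 17 guidance genes with several measured probe sets (17.6%), against 11.4% of 6465 such genes on the array. In 0 of the 17 was one probe set at least 1.5-fold higher in S100A7 cells and another at least 1.5-fold lower. Counted by probe set, 5 of 61 were at least 2-fold lower (8.20%, against 2.13% of 24438), 2 of them NEO1 and the others 1 each of NRP1, NRP2 and RGMB, and 0 were at least 2-fold higher, against 2.20%. NEO1 was known to differ when the set was proposed, so its 2 probe sets raise that share by choice. The NRP2 value is a bound. By gene, 0 of the 32 measured guidance genes other than NEO1 were at least 2-fold lower.

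Plexins, the semaphorin receptors, were nearly the same on both arrays. All 7 measured genes of 9 lay between -0.28 and 0.37 on the log2 ratio scale. PLXNB2 read 2768 in S100A7 cells and 3370 in vector cells. PLXND1, a receptor of vessel patterning, read 815 in S100A7 cells and 632 in vector cells, and its 3 probe sets lay between 0.17 and 0.45. PLXNA1 read 1176 in S100A7 cells and 944 in vector cells, with its other probe sets at -0.01 and -0.15. PLXNA2 read 724 in S100A7 cells and 846 in vector cells by its brightest probe set, while another lay at 0.20. PLXNA3 was at -0.25, PLXNB3 at -0.23 and PLXNC1 at 0.00. PLXNB1 and PLXNA4 were under the floor on both arrays.

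In the Slit and Robo pair, the receptor ROBO1 showed the largest difference. ROBO1 read 550 in S100A7 cells and 340 in vector cells, 1.62-fold higher on its 1 probe set. SLIT2, a ligand of ROBO1, read 287 in S100A7 cells and 250 in vector cells, and its 3 probe sets had log2 ratios of 0.20, 0.27 and 0.67. ROBO3 and ROBO4, measured genes with none between them on chromosome 11, read 350 in S100A7 cells and 315 in vector cells for ROBO3, and 1198 in S100A7 cells and 1297 in vector cells for ROBO4, a receptor best known from endothelium. SLIT1, SLIT3 and ROBO2 were under the floor on both arrays.

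**Figure D3:**
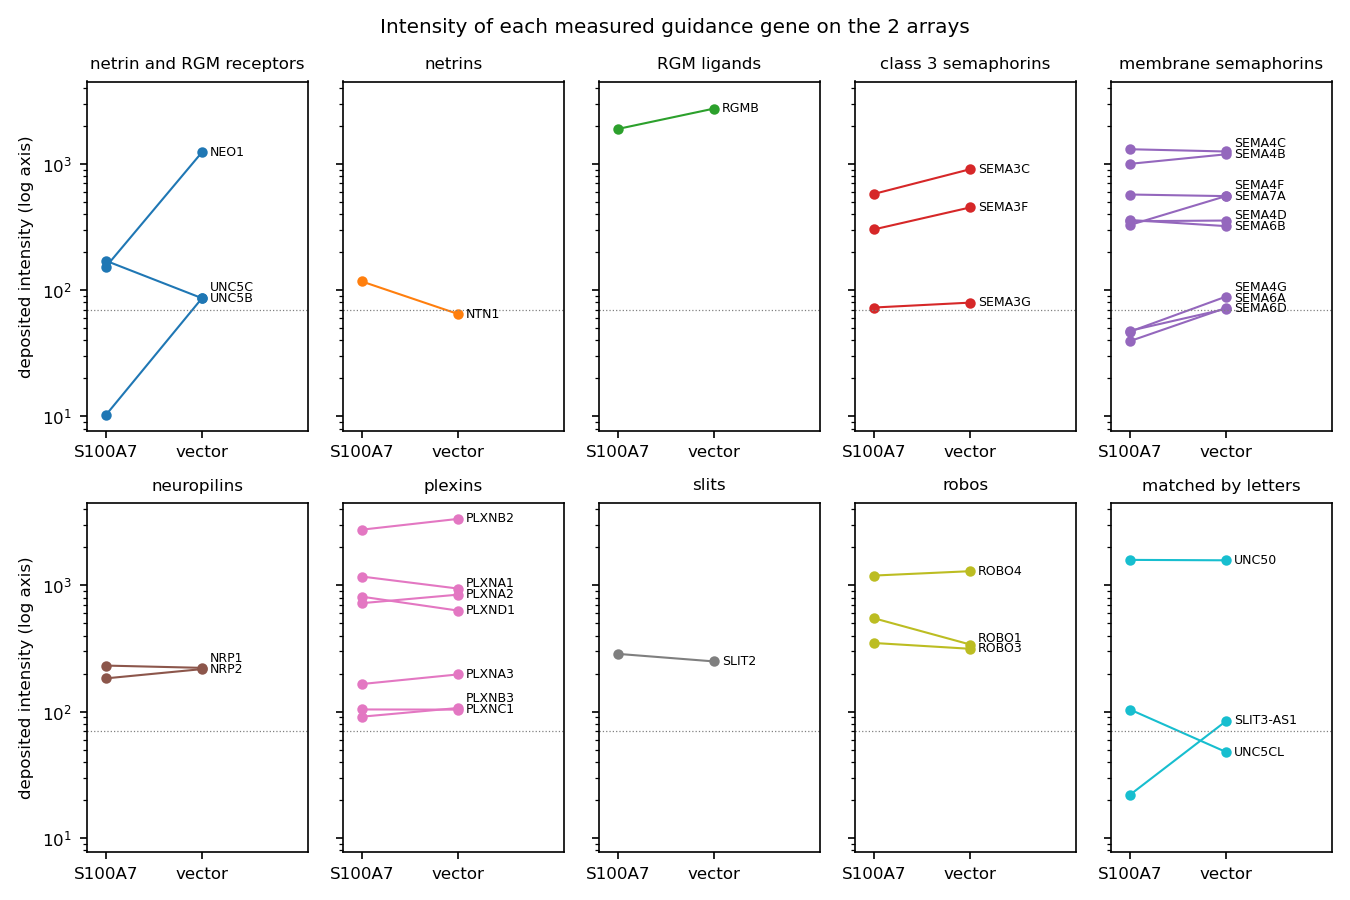
Deposited intensity, on a log axis, of the brightest measured probe set of each of the 33 measured guidance genes on the S100A7 array (left in each panel) and the vector array (right), with a dotted line at the mean of both floors. Slopes can be compared between genes and heights cannot, since probe sets differ in sensitivity. Values are drawn with no floor, so a slope with an end under the dotted line is not reliable. NEO1 reads 153 in S100A7 cells and 1242 in vector cells, and most other lines are close to level. UNC5C, at 10.2 in S100A7 cells and 86.5 in vector cells, is slightly steeper than NEO1. SLIT3-AS1 is also steep, and both have S100A7 values under the floor.

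The naming rule also takes in 7 genes that do not encode guidance cues or receptors of these families. UNC50, which encodes a membrane protein of the secretory pathway, read 1594 in S100A7 cells and 1582 in vector cells. UNC5CL, a relative of UNC5C with a death domain that is not a netrin receptor, read 104 in S100A7 cells and 47.8 in vector cells, at least 1.46-fold higher. SLIT3-AS1, an antisense transcript, read 21.9 in S100A7 cells and 84.3 in vector cells, at least 1.22-fold lower. The other 4, RGMB-AS1, SLIT1-AS1, SLIT2-IT1 and UNC5B-AS1, were under the floor on both arrays.

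Over the 33 measured genes the median log2 ratio was -0.07, against -0.04 over all measured genes. Of them, 19 (57.6%) lay below 0, against 54.2% of all, and scaling to equal medians put SEMA4D above 0. At 1.5-fold, 3 were higher (UNC5B, NTN1 and ROBO1; 9.09%, against 8.12% of all genes) and 3 were lower (NEO1, SEMA4F and SEMA3C; 9.09%, against 10%). The spread of log2 ratios among a gene's own probe sets, pooled as a standard deviation, was 0.40 over the 17 guidance genes with several measured probe sets and 0.36 over all such genes. Both hold probe set differences only and no spread between cultures.

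Genes acting downstream of these receptors or as their partners were taken from 4 lists of 94 genes in all, of which 71 were measured. Of the 71, none (0) was 2-fold or more higher and 3 were at least 2-fold lower (4.23%), against 1.80% of all measured genes higher and 2.25% lower. The median log2 ratio was -0.14. CDK5, a kinase needed for the response to semaphorin 3A, read 632 in S100A7 cells and 1374 in vector cells, 2.17-fold lower on 1 probe set with the suffix _s_at. MET, the hepatocyte growth factor receptor, which associates with plexins of the B class, read 623 in S100A7 cells and 1285 in vector cells, 2.06-fold lower, and its 4 probe sets lay between -1.11 and -0.82. MAGED1, a partner of the UNC5A receptor in cell death, read 2022 in S100A7 cells and 4078 in vector cells, 2.02-fold lower on 1 probe set. All 3 were under 2-fold after the median of their chromosomal neighbours was subtracted, and MAGED1 was also under it with the arrays scaled to equal medians.

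Per list the counts stand beside the same array shares, with 54.2% of all measured genes below 0. By pathway, 18 of 25 netrin and neogenin signalling genes were measured, 1 of them at least 2-fold lower and 9 below 0, with a median of -0.01. For the RGM and bone morphogenetic protein list 16 of 18 were measured and 0 were outside 2-fold, with a median of -0.20 and 11 below 0. The receptor gene ACVR2A was at -0.83 and the ligand gene BMP4 at 0.74. The ratios of TMPRSS6, BMP2, BMP6 and BMP7 are bounds, with S100A7 cells under the floor, and these 4 were at least 2-fold lower with no floor. For semaphorin and plexin signalling 24 of 34 were measured and 2 were lower, with a median of 0.06 and 11 below 0, and at the high end were MICAL2 at 0.91 and MICAL1 at 0.89, encoding enzymes that oxidise and dismantle actin filaments downstream of plexins. RND1 on that list read 19.2 in S100A7 cells, under the floor, and 117 in vector cells. With no floor RND1 was at least 2-fold lower. For Slit and Robo signalling 16 of 21 were measured and 0 were outside 2-fold, with a median of -0.28 and 13 below 0. The lowest there were the heparan sulphate proteoglycan genes GPC1 at -0.92 and SDC1 at -0.72, whose products bind Slits or their receptors at the cell surface. FLRT1 on that list read 71.3 in S100A7 cells and 33.2 in vector cells, the latter under the floor. With no floor FLRT1 was at least 2-fold higher. ACVR2A, BMP4, MICAL1, MICAL2, GPC1 and SDC1 were named after their values were seen. So were TMPRSS6, BMP2, BMP6, BMP7, RND1 and FLRT1, for their values with no floor.

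**Figure D4:**
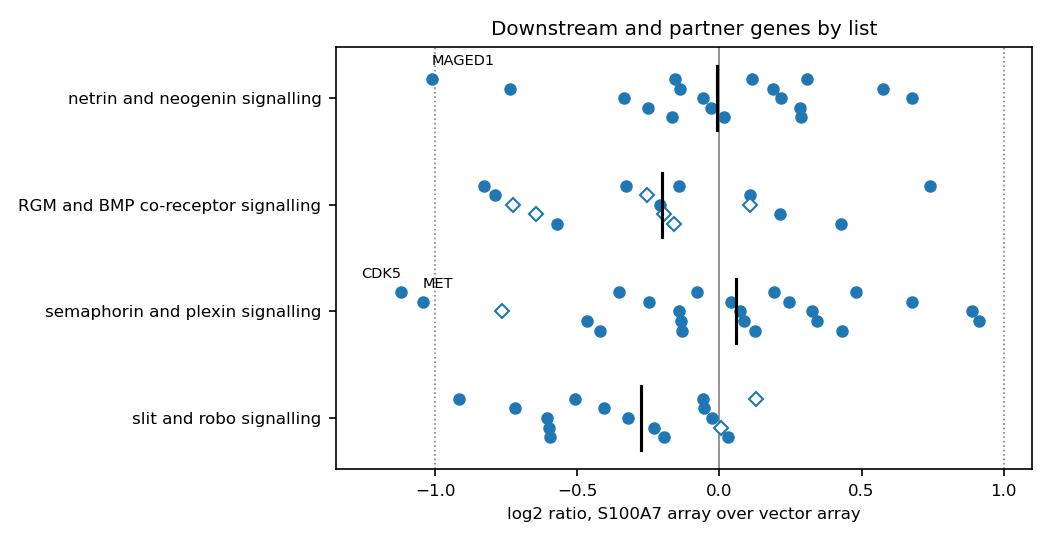
Log2 ratio, S100A7 over vector, of the measured genes of the 4 downstream and partner lists, 1 point a gene by its brightest probe set, with open diamonds for bounds, black bars for list medians (-0.01, -0.20, 0.06 and -0.28 from top to bottom) and dotted lines at 2-fold. MAGED1, CDK5 and MET lie at or below -1.01 and no gene lies above 0.91.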

How the data were processed

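Each array was deposited as linear intensity values, 1 for each probe set, which the authors made with MAS5 (per the submitters' processing notes). Its version and its scaling target were not given in the sources used here, and no detection calls were used. Means trimmed by 2% at each end were 500.1 on both arrays, so the arrays were used as deposited. Gene names came from the platform's annotation: 41091 of 54675 had 1 gene, 41037 of them matched by Entrez identifier to RefSeq genes (GRCh38.p14), 1801 listed several, and the others are unnamed here; 62 were controls. The floor, the choice of probe set and the 2-fold limit were as described above, with Python 3.11.15, pandas 2.3.3 and matplotlib 3.10.9. Steps were tested on simulated arrays. Changes were simulated only in genes well above the floor on both arrays, so calls near the floor were not tested. With 1 array a group there was no test, and the number of arrays limits the precision. The members, lists and alternatives were chosen with earlier results of these data known. Every measured guidance gene could be named; downstream genes were named when at least 2-fold apart, with exceptions marked. Promoters came from a RefSeq table (GRCh38.p14) that held 48 of the 59 genes. Columns of values left unused numbered 0.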

Additional observations from a re-analysis of the deposited data

How the results depend on the processing

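Across 14 alternatives, 52 of 73 recomputed counts and medians stayed within 1.5 times (counts) or within the probe set standard deviation of 0.36 over the root of the number of genes (medians), and 21 moved. NEO1 was at least 2-fold lower in all 14, at log2 ratios from -3.03 to -2.13 over the 11 alternatives that recompute it. Guidance genes at least 2-fold higher numbered 1 (UNC5B) with median centring, 2 (NTN5 and UNC5CL) with a floor at the 30th percentile, 1 (UNC5CL) with no floor and 3 at 1.5-fold, against 0. Those lower numbered 3 (NEO1, UNC5C and SLIT3-AS1) with a floor at the 30th percentile, with no floor and with a pseudocount of 32, and 3 at 1.5-fold, against 1. The median of guidance genes was -0.19 with the median over probe sets and 0.018 after subtracting chromosomal neighbours, against -0.07. Downstream and partner genes at least 2-fold higher numbered 3 with a floor at the 30th percentile, 1 with no floor and 1 with the median over probe sets, against 0. Those lower numbered 8 with a floor at the 30th percentile, 8 with no floor, 7 with a pseudocount of 32 and 0 after subtracting neighbours, against 3. Their median was -0.058 with a floor at the 70th percentile, -0.042 with no filter, -0.067 with the median over probe sets and -0.042 after subtracting neighbours, against -0.14. Some alternatives also changed which genes were measured. With a floor at the 30th percentile, 52 guidance genes and 83 downstream and partner genes were measured, against 33 and 71. Shares over all genes are not given for the alternatives, so these counts are not set against the array. UNC5C, SLIT3-AS1 and UNC5CL each had 1 array under the floor. So did BMP2, BMP6, BMP7, RND1 and TMPRSS6, the genes added with no floor to the downstream and partner genes at least 2-fold lower. The 1 such gene higher with the median over probe sets was RAP1A, whose probe sets are given below. The cause of the other shifts was not tested. Leaving out the genes of the naming rule that do not encode guidance cues or receptors was chosen after seeing the data. Signal near the floor limits UNC5B, UNC5C and NTN1. NEO1 was at -2.13 with the floor at the 70th percentile, so the size of its fold depended on the floor through its low S100A7 signal. No paired analysis was possible because each group is 1 array, and no replicate could be left out.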

Other observations

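RAP1A, which encodes a small GTPase controlled by plexins and was on the semaphorin list, was read very differently by its 4 measured probe sets. The brightest by mean (202362_at) read 4768 in S100A7 cells and 4535 in vector cells, and another (228548_at) read 422 in S100A7 cells and 216 in vector cells. The others read 22127 in S100A7 cells and 64.5 in vector cells (1555340_x_at, at least 311-fold higher), and 13953 in S100A7 cells and 58.7 in vector cells (1555339_at, at least 196-fold higher). The transfected S100A7 was at least 186-fold higher on the same arrays. The cause was not tested, and these values were noted after the data were seen.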
